A study of Arabidopsis thaliana with 23 samples.

Results

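The 10 genes described here encode proteins of the small interfering RNA (siRNA) pathways of Arabidopsis thaliana: the Dicers DCL2, DCL3 and DCL4, the Argonautes AGO2, AGO4, AGO7 and AGO10, the RNA-dependent RNA polymerases RDR2 and RDR6, and the RDR6 partner SGS3. They were taken by name, not by any measured value, and all 10 were found among the 27655 genes of the mRNA table. The mRNA libraries came from whole seedlings in 4 groups: sos2-2 after 12 hours in liquid MS medium with 100 mM NaCl (3 libraries), sos2-2 on MS medium (2 libraries), the wild type (WT, named gl1 in the design text) after the same NaCl treatment (3 libraries) and WT on MS medium (3 libraries). All seedlings were 10 days old, had spent 2 days in the cold as seeds and grew at 22 °C in constant light on medium with sucrose. SOS2 is a protein kinase of the salt overly sensitive pathway, and what the sos2-2 allele changes is not stated in the labels. Whether MS seedlings were also moved to liquid is not stated either, so NaCl and the move to liquid cannot be told apart. Small RNA was measured in 12 further libraries, 3 for each group, which were not the mRNA libraries.

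Dicers cut double-stranded RNA into small RNAs, and Argonautes carry those small RNAs to matching transcripts or loci. RDR2, DCL3 and AGO4 serve RNA-directed DNA methylation, whereas RDR6, SGS3, DCL4 and AGO7 make trans-acting siRNAs from TAS transcripts that a miRNA has first cut. DCL2 and AGO2 are known for antiviral defence, and AGO10 holds miR165 and miR166 back from AGO1 in the shoot meristem.

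The miRNAs that tie these genes to the small RNA libraries are shown first, 5′ to 3′, with the seed (bases 2 to 8) in capitals. miR390 is carried by AGO7 and cuts TAS3, miR173 cuts TAS1 and TAS2, miR828 cuts TAS4, miR403 targets AGO2, and AGO10 binds miR165 and miR166. The mature sequences were read from the TAIR10.1 genome of RefSeq at the annotated mature coordinates.
miR403-3p: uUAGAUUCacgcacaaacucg
miR390a-5p: aAGCUCAGgagggauagcgcc
miR173-5p: uUCGCUUGcagagagaaaucac
miR828: uCUUGCUUaaaugaguauucca
miR165a-3p: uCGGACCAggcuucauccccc
miR166a-3p: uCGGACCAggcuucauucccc
miR165a-3p and miR166a-3p share their seed, and the other miRNAs shown each have a seed of their own.

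A search of 349 mature miRNA sequences used only the transcript with the largest share of each gene. Allowing a penalty of at most 2.5 (1 for each mismatch, 0.5 for each G:U pair), it found a site in 3 of the 10 genes. Of 16369 nuclear genes searched, 1304 or 7.97% held a site for any of these miRNAs, and a match is a description only. The AGO2 site lies in the 3′ UTR at chr1:11185223-11185243 (plus strand, TAIR10.1), has a penalty of 1.0 and pairs with miR403-3p. AGO10 has a site of penalty 1.0 for miR5658 in its 5′ UTR at chr5:17610897-17610917 (plus strand). In both sites the capitals mark the bases opposite the seed.
AGO2 site: ggaguuugugcguGAAUCUAa
AGO10 site: cuucaucaucaucAUCAUCAu
miR5658: aUGAUGAUgaugaugaugaaa
The miR5658 site is a run of trinucleotide repeats, and miR5658 was at 0.145 ± 0.0852 RPM, a read count scaled to a fixed library total, in sos2-2 in NaCl, 0.0177 ± 0.0307 in sos2-2 on MS, 0.0195 ± 0.0337 in WT in NaCl and 0.147 ± 0.204 in WT on MS (SD, n = 3 each). AGO7 matched miR5021 in a repeat of its 5′ UTR and miR854 in its coding sequence, both with penalties of at least 2.0. miR5021 averaged at most 0.0380 RPM and miR854a at most 0.486 RPM in any group.

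The mRNA values were TPM, a level per transcript length scaled to a fixed total, which keeps no depth, so the depth of these libraries is unknown. Plastid transcripts took 67.9 ± 1.95% of the TPM in sos2-2 in NaCl, 70.8 ± 3.08% in sos2-2 on MS, 75.0 ± 3.97% in WT in NaCl and 68.3 ± 3.08% in WT on MS (SD, n = 3, 2, 3 and 3). The genotypes in NaCl differed most, by −7.08 percentage points (exact permutation p = 0.1, the smallest possible, adjusted p = 0.4 over the comparisons of 2 groups). Scale differed too: the median log2 change of all tested genes was 0.16 for salt in sos2-2, −0.21 for salt in WT, 0.32 for sos2-2 against WT in NaCl and −0.05 on MS. Each difference below is therefore given on the log2(TPM + 1) scale relative to the library median, with the limma adjusted p as deposited first and that after median centring second. Libraries also differed in how base composition went with level. Across 16369 genes, not independent of each other, the Spearman correlation of purine share with the gene's deviation from its mean over libraries was 0.248, −0.194 and 0.0324 in sos2-2 in NaCl, 0.194 and 0.244 in sos2-2 on MS, −0.314, 0.204 and 0.340 in WT in NaCl and −0.247, −0.394 and −0.0812 in WT on MS. Replicate 1 of WT in NaCl thus stood apart from replicates 2 and 3 of its group, and the sos2-2 libraries in NaCl were spread on both sides of 0.

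SOS2 itself was at 1.003 ± 0.258 TPM in sos2-2 in NaCl, 1.304 ± 0.0846 in sos2-2 on MS, 1.09 ± 0.145 in WT in NaCl and 1.08 ± 0.178 in WT on MS (SD, n = 3, 2, 3 and 3), so its transcript level does not check the genotype labels. Leaf markers fitted the label of whole seedlings, with 6 of 6 photosynthesis genes detected, summing to 7160 to 10195 TPM in sos2-2 in NaCl, 7459 to 7611 in sos2-2 on MS, 4706 to 9046 in WT in NaCl and 12556 to 14122 in WT on MS. The 9 root markers summed to 24.1 to 29.9 TPM in sos2-2 in NaCl, 19.3 to 24.3 in sos2-2 on MS, 18.8 to 32.7 in WT in NaCl and 32.9 to 34.4 in WT on MS. The phloem marker SUC2 had 3.17 to 4.32 TPM in sos2-2 in NaCl, 2.93 to 3.46 in sos2-2 on MS, 2.99 to 5.16 in WT in NaCl and 5.38 to 6.31 in WT on MS. Of 5 meristem and boundary markers WUS was listed at 0 in every library, and the list summed to 8.16 to 9.33 TPM in sos2-2 in NaCl, 6.63 to 7.61 in sos2-2 on MS, 7.53 to 10.5 in WT in NaCl and 8.59 to 9.25 in WT on MS. The summed leaf, root and phloem markers were thus highest in WT on MS, though by group mean this held for 5 of 6 leaf, 4 of 9 root and 3 of 5 meristem and boundary genes, and their part in the differences below was not tested. In whole seedlings, fewer cells of a type and less RNA per cell cannot be told apart.

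All 10 genes were transcribed at low to middling levels, and by mean the Argonautes among them stood above the Dicers among them. Outside the 10 this order did not hold. The Dicer DCL1 had group means of 2.54 to 5.72 TPM and the Argonaute AGO6 of 0.310 to 0.597 TPM. AGO10 was highest, at a mean of 11.1 ± 1.64 TPM over the 11 libraries, above 73.0% of the 16564 genes with a mean of at least 1 TPM. AGO4 followed at 7.47 ± 1.49 TPM and SGS3 at 5.38 ± 1.55 TPM. AGO2 averaged 3.47 ± 1.24 TPM, RDR6 2.28 ± 0.446 TPM and AGO7 1.93 ± 0.489 TPM. The Dicers DCL4 and DCL2 averaged 1.64 ± 0.244 and 1.43 ± 0.282 TPM. RDR2, at 0.988 ± 0.201 TPM, and DCL3, at 0.824 ± 0.141 TPM, were lowest (SD over 11 libraries throughout). TPM is per length, so these levels can be compared between genes.

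Neighbours in this order overlapped in their ranges over libraries, but the order within a library was steadier. AGO10 was the highest of the 10 genes in 11 of 11 libraries, SGS3 was above AGO2 in 11 of 11, and DCL2 was above RDR2 in 11 of 11. AGO4 was above SGS3 in 9 of 11 libraries, AGO2 above RDR6 in 8 of 11 and AGO7 above DCL4 in 8 of 11, so those neighbours changed places. The 10 genes together summed to 30.3 TPM in the lowest library and 44.95 TPM in the highest.

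**Figure D1:**
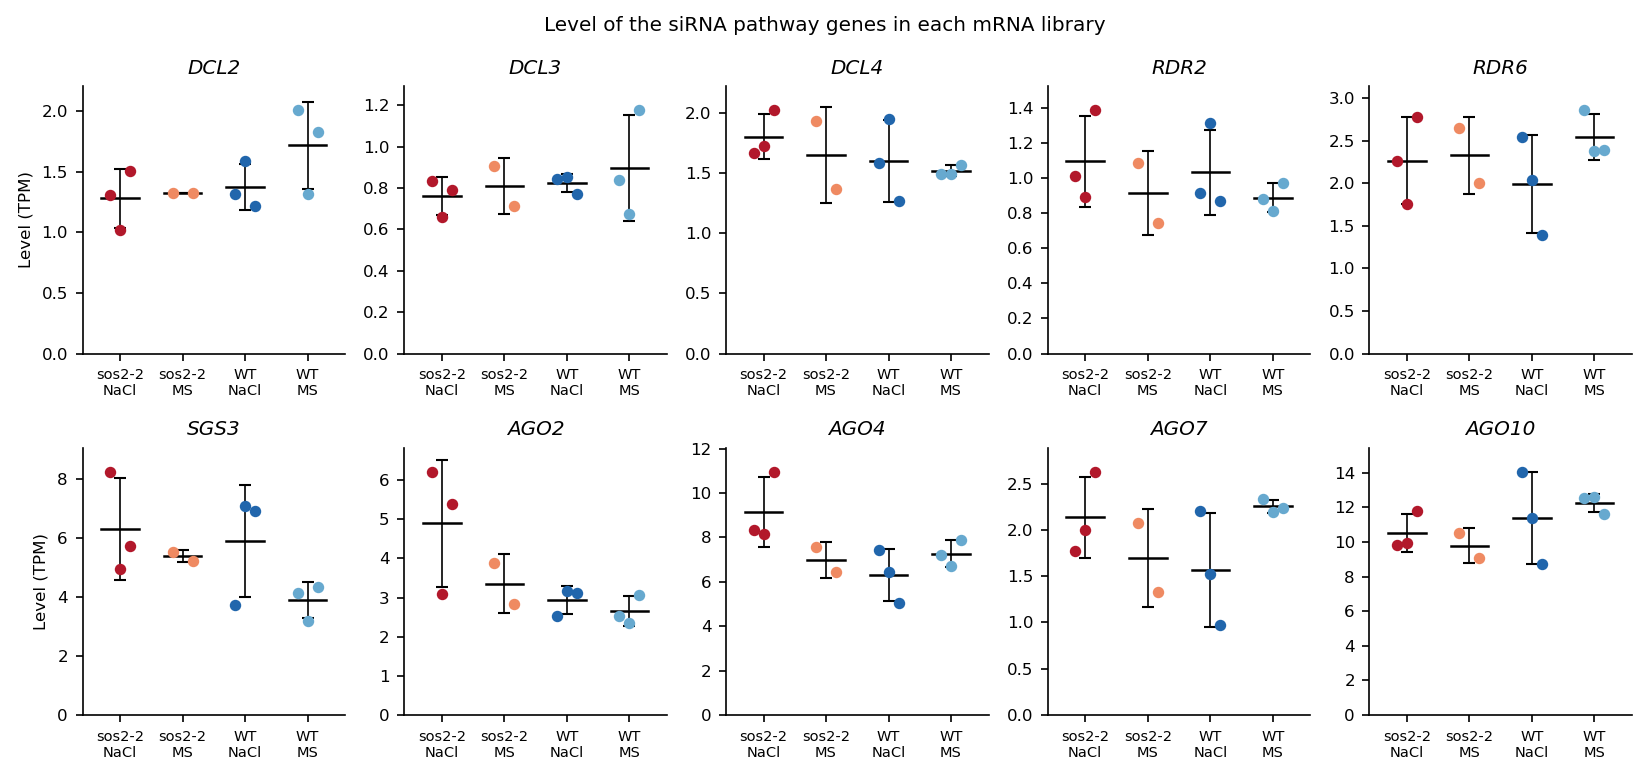
Level in TPM of each of the 10 genes (vertical axis, from 0, scaled per gene) in the 4 groups of mRNA libraries. Points are libraries, long bars are group means and whiskers are SD, and AGO4 in sos2-2 in NaCl lies above all other libraries, from 8.14 to 10.96 TPM.

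Members share long transcripts, which the choice by name did not use. The transcript with the largest share measured 2456 bases for SGS3, the shortest, and 5666 bases for DCL4, the longest, at percentiles 81.0 and 99.1 of the genes with a sequence. SGS3 was also set apart by its base composition: 58.3% of its bases are purines, at percentile 98.1, against 49.6% for AGO7, the lowest of the 10. AGO2 (chromosome 1, 11181504 to 11185396) shares 46 of its 3572 words of 31 bases with its tandem neighbour AGO3, so reads of that pair can be exchanged. AGO7 shared 13 of 3413 such words with transcripts of other genes, and the other 8 genes shared 0. Only the transcript with the largest share of each gene was compared. A value of 0 thus does not show that no reads are exchanged with other transcripts. DCL2 (chromosome 3, 767880 to 776214) overlaps AT3G03305 on the same strand, a gene at 1.98 to 4.18 TPM, and DCL3 (chromosome 3, 15753387 to 15760859) overlaps AT3G43930 on the other strand, at 0.0307 to 0.179 TPM.

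For 7 of the 10 genes the table held several transcripts. AGO10 was mostly AT5G43810.1, at 77.2 ± 3.81% of its TPM over 11 libraries, with AT5G43810.3 at 17.0 ± 3.12% and AT5G43810.4 at 5.76 ± 1.58%. The share of AT5G43810.1 was 75.3 ± 4.32% in sos2-2 in NaCl, 80.4 ± 0.519% in sos2-2 on MS, 77.0 ± 4.19% in WT in NaCl and 77.4 ± 4.52% in WT on MS (SD, n = 3, 2, 3 and 3), with overlap except between the sos2-2 groups, where both MS libraries were above the NaCl libraries. AGO4 was nearly all AT2G27040.1 (99.3 ± 0.633%), and DCL4 was mostly AT5G20320.1 (92.4 ± 10.9%). In genes at lower levels the split was unstable: AT3G03300.2 of DCL2 took 28.9 to 86.3% between libraries, AT3G49500.1 of RDR6 30.03 to 86.3%, and AT3G43920.2 of DCL3 from 0 to 100% (SD over 11 libraries).

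Across the 5 comparisons, none of the 8 members with a mean of at least 1 TPM was called at a limma adjusted p under 0.05 in the values as deposited. DCL3 and RDR2 fell below that mean and were fitted only without the filter, where neither was called. The share of all 16564 genes called in either direction was 6.59% for salt in sos2-2, 9.41% for salt in WT, 19.3% for sos2-2 against WT in NaCl, 2.79% for the same on MS and 2.04% for the interaction, which is the salt change in sos2-2 minus that in WT. At an unadjusted p under 0.05, AGO2 and AGO4 passed for sos2-2 against WT in NaCl, both higher. Of all 16564 genes, 5907 passed there higher and 187 lower, so this did not set the 2 genes apart. In each of the other 4 comparisons 0 of 8 passed. Of all genes, 2501 passed higher and 582 lower for salt in sos2-2, and 743 and 3873 for salt in WT. For genotype on MS 1440 and 1877 passed, and for the interaction 3807 and 296. After median centring AGO10 and DCL2 were called lower in sos2-2 than in WT in NaCl, where 5.65% of all genes were called lower and 10.6% in either direction. In the other comparisons 0 of 8 were called after centring, against 8.82% of all genes for salt in sos2-2, 10.2% for salt in WT, 10.3% for genotype on MS and 0.749% for the interaction. The comparisons share groups, so their counts are not independent of each other.

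**Figure D2:**
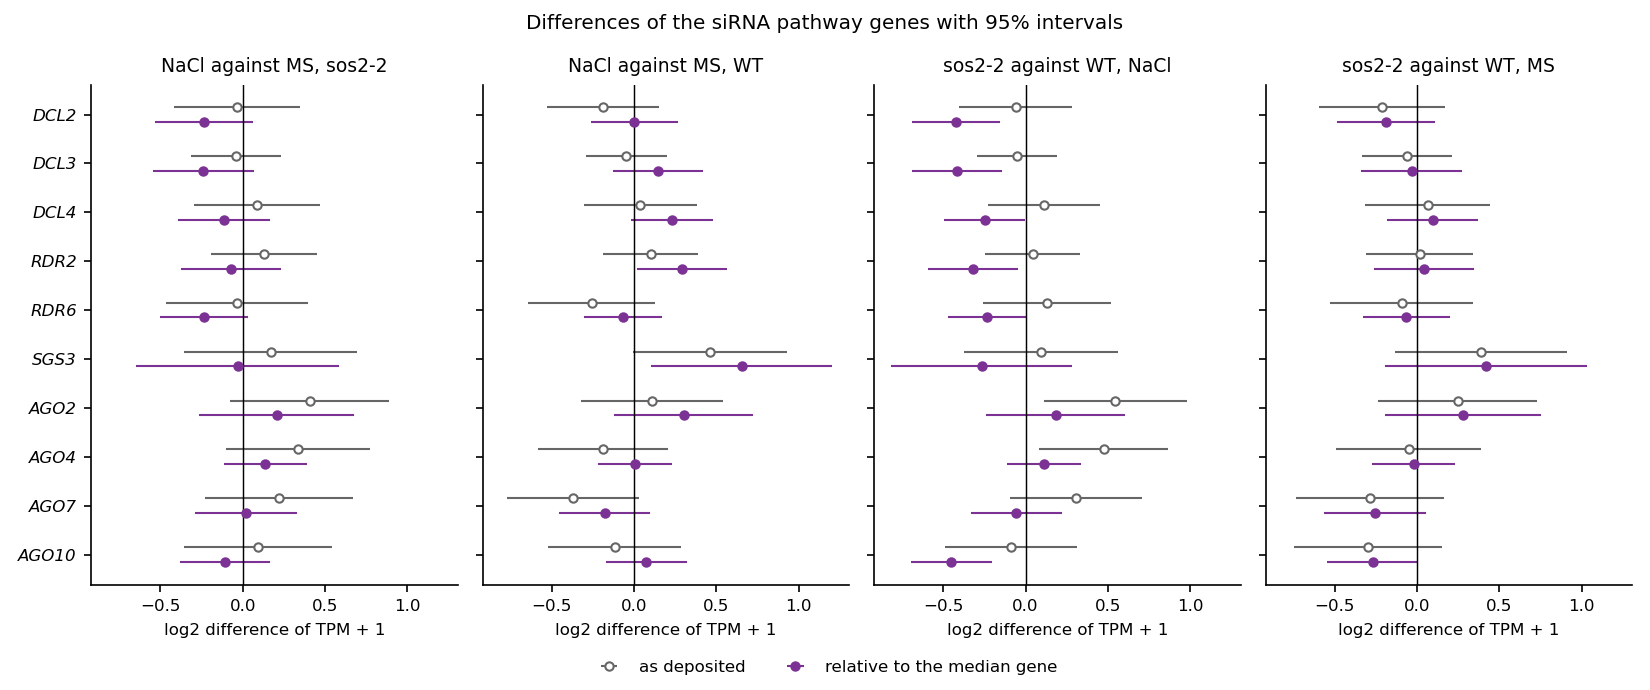
Difference in log2(TPM + 1) (horizontal axis) for the 10 genes in 4 comparisons, with 95% intervals from limma. Open grey points are the values as deposited and filled purple points are relative to the library median. For sos2-2 against WT in NaCl the purple points of AGO10, at −0.45, and DCL2, at −0.42, lie left of 0 with their intervals. DCL3 and RDR2 come from the fit without a filter.

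Among the Dicers, DCL2 was called lower in sos2-2 than in WT in NaCl only after centring, while DCL4 was not called in any comparison. DCL2, which backs up DCL4 against viruses, had 1.31, 1.02 and 1.51 TPM in sos2-2 in NaCl, 1.32 and 1.33 in sos2-2 on MS, 1.31, 1.58 and 1.22 in WT in NaCl and 2.00, 1.31 and 1.83 in WT on MS. As deposited these groups overlapped in every comparison. Relative to the library median, the 3 sos2-2 libraries in NaCl all lay below the 3 WT libraries in NaCl, as for 17.3% of all genes. The difference was −0.42 (SE 0.12, 95% interval −0.69 to −0.16, adjusted p = 0.80 as deposited and 0.0483 centred). The call was lost in 10 of 11 fits that left out a library, with adjusted p up to 0.154, and remained without replicate 1 of WT in NaCl (0.0266). With the purine and length trend of each library removed the difference was −0.36 (adjusted p = 0.0586), where 6.01% of all genes were called lower. With TPM recomputed over the nuclear genome alone it was −0.39 (adjusted p = 0.167), where 3.50% of all genes were called lower.

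DCL3, the Dicer of RNA-directed DNA methylation, had 0.834, 0.658 and 0.789 TPM in sos2-2 in NaCl and 0.845, 0.855 and 0.773 TPM in WT in NaCl. It had 0.905 and 0.713 TPM in sos2-2 on MS and 0.839, 0.676 and 1.18 TPM in WT on MS. In NaCl its centred difference between sos2-2 and WT was −0.42 (SE 0.13, adjusted p = 0.787 and 0.0612) and was not called. That is the size of the DCL2 difference, but as deposited the DCL3 difference was −0.05. At this level centring can take off more than the scale difference that log2(TPM + 1) carries. A value over the nuclear genome alone is not given for DCL3.

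DCL4, which cuts the trans-acting siRNAs, was steady. It had 1.67, 1.72 and 2.02 TPM in sos2-2 in NaCl, 1.93 and 1.37 in sos2-2 on MS, 1.59, 1.95 and 1.27 in WT in NaCl and 1.497, 1.492 and 1.57 in WT on MS. The largest of its centred differences between 2 groups was −0.25 (SE 0.11, adjusted p = 0.618 and 0.183), for sos2-2 against WT in NaCl. Its highest library was 1.59 times its lowest, the smallest such range of the 10 genes.

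The RNA-dependent RNA polymerases turn single-stranded transcripts into the double strands that Dicers cut, and neither was called in any comparison. RDR2, of the DNA methylation branch, had 1.01, 0.891 and 1.38 TPM in sos2-2 in NaCl, 1.08 and 0.744 in sos2-2 on MS, 0.911, 1.31 and 0.870 in WT in NaCl and 0.879, 0.811 and 0.972 in WT on MS. Its centred salt change in WT was 0.29 (SE 0.12, adjusted p = 0.705 and 0.196). Its centred difference between sos2-2 and WT in NaCl was −0.32 (SE 0.12, adjusted p = 0.856 and 0.1004). As deposited these were 0.10 and 0.04, and the limit of centring given for DCL3 holds here too. RDR6, of the trans-acting siRNA branch, had 2.26, 1.75 and 2.77 TPM in sos2-2 in NaCl, 2.65 and 2.01 in sos2-2 on MS, 2.54, 2.04 and 1.39 in WT in NaCl and 2.85, 2.38 and 2.39 in WT on MS. All 4 groups overlapped as deposited. Its centred differences were between −0.23 and −0.06 in the 4 comparisons of 2 groups, with adjusted p of at least 0.374 as deposited and 0.196 centred.

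SGS3, the RNA-binding partner of RDR6, had the widest spread between libraries of the tested members after centring, with an SD of 0.40 in log2. It had 8.26, 4.95 and 5.72 TPM in sos2-2 in NaCl, 5.53 and 5.24 in sos2-2 on MS, 3.73, 7.10 and 6.91 in WT in NaCl and 4.15, 3.198 and 4.35 in WT on MS. Both sos2-2 libraries on MS were above all 3 WT libraries on MS, as for 16.8% of all genes, by a centred 0.42 (SE 0.28, adjusted p = 0.405 and 0.341). In WT, replicates 2 and 3 in NaCl were above the MS libraries and replicate 1 lay among them. The centred salt change in WT was 0.65 (SE 0.25, 95% interval 0.10 to 1.21, adjusted p = 0.184 and 0.121).

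Leaving out replicate 1 of WT in NaCl changed calls in each of the 3 comparisons that use it. Without it, SGS3 was called higher for salt in WT, at log2 0.72 as deposited (adjusted p = 0.016, with 3.96% of all genes called higher) and 0.98 centred (0.00415, with 10.5%). After centring SGS3 was also called lower for sos2-2 against WT in NaCl (−0.60, 0.0469, with 7.53% of all genes called lower) and in the interaction (−1.02, 0.0321, with 5.29%). AGO7 was then called lower for salt in WT only as deposited, at −0.55 (adjusted p = 0.0441, with 21.9% of all genes called lower), against −0.28 centred (0.155). AGO4 was called higher for sos2-2 against WT in NaCl only as deposited, at 0.59 (adjusted p = 0.0305, with 32.7% of all genes called higher), against 0.15 centred (0.414).

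The purine trend of the libraries moved with SGS3. Over the 11 libraries the centred level of SGS3 correlated with the purine correlation of the library at r = 0.883. That of AGO2 did so at 0.795, that of AGO4 at −0.172 and that of AGO7 at −0.881. For the other tested members r was 0.360 for DCL4, 0.086 for DCL2, −0.321 for RDR6 and −0.496 for AGO10. These are descriptions over libraries that share groups. SGS3 is richest in purines and AGO7 poorest among the 10 genes. AGO10 has more purines (51.9%) than DCL4 (51.1%), so r did not follow purine share throughout. With the purine and length trends removed together, the salt change of SGS3 in WT was 0.28 (adjusted p = 0.142) and its difference between genotypes on MS 0.02 (adjusted p = 0.956). The parts of purine share and length in this cannot be told apart. The like Spearman correlation with transcript length was 0.102, −0.132 and 0.0820 in sos2-2 in NaCl and 0.0743 and −0.0254 in sos2-2 on MS. In WT it was −0.163, 0.251 and 0.261 in NaCl and −0.181, −0.201 and −0.0350 on MS. For AGO7, with both trends removed, the salt change in WT was −0.21 (adjusted p = 0.301) and the difference between genotypes on MS −0.24 (adjusted p = 0.287), close to the −0.18 and −0.25 before removal.

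**Figure D3:**
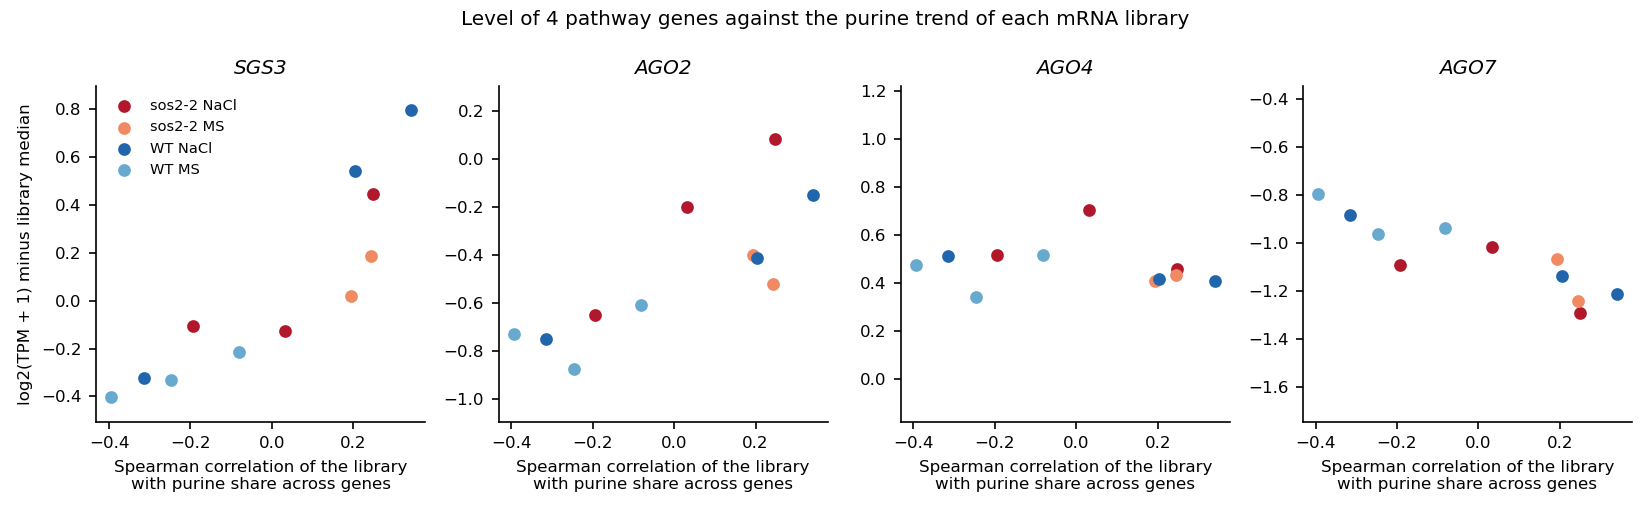
Centred level of SGS3, AGO2, AGO4 and AGO7 (vertical axis, log2(TPM + 1) minus the library median, all panels spanning the same range) against the Spearman correlation of each mRNA library with the purine share of transcripts (horizontal axis). SGS3 and AGO2 are higher and AGO7 lower in libraries with a positive correlation, while AGO4 is nearly level. The other tested members are not drawn.

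The Argonautes held the highest members and the difference called most often. AGO10 had 9.84, 9.94 and 11.8 TPM in sos2-2 in NaCl, 10.5 and 9.05 in sos2-2 on MS, 14.05, 11.4 and 8.74 in WT in NaCl and 12.5, 12.6 and 11.6 in WT on MS. On MS all sos2-2 libraries were below all WT libraries, as for 22.7% of all genes, and in NaCl the groups overlapped as deposited, with replicate 3 of WT in NaCl, the library with the largest plastid share, lowest of all. Relative to the library median, all sos2-2 libraries were below all WT libraries in NaCl too. The difference there was −0.45 (SE 0.11, 95% interval −0.70 to −0.21, adjusted p = 0.751 as deposited and 0.0282 centred), and on MS it was −0.27 (SE 0.12, adjusted p = 0.463 and 0.172). With TPM recomputed over the nuclear genome alone it was −0.45 in NaCl (adjusted p = 0.0355, with 3.50% of all genes called lower), and with the purine and length trend removed −0.39 (adjusted p = 0.0819). The centred call was kept in the 5 fits that left out an MS library and lost in all 6 that left out a NaCl library, with adjusted p between 0.0259 and 0.0898. The interaction was not called (centred −0.18, SE 0.17, adjusted p = 0.619 and 0.606).

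After centring, DCL4 and RDR6 also lay lower in all sos2-2 libraries in NaCl than in all WT libraries in NaCl, so 4 of the 8 tested members did not overlap in that direction, beside 17.3% of all genes. DCL2, DCL4, AGO10 and RDR6 were likewise lower in all sos2-2 libraries in NaCl than in both on MS, beside 22.9% of all genes, and AGO4 was higher, beside 17.1%. Between the genotypes on MS, AGO2 and SGS3 did not overlap in the higher direction (23.5% of all genes) and AGO7 and AGO10 in the lower (26.8%). The median centred change of the 8 members was −0.24 for sos2-2 against WT in NaCl, beside −0.05 for all genes, and between −0.07 and 0.04 in the other comparisons of 2 groups. Centring takes the same amount off every gene, while log2(TPM + 1) of a gene near 1 TPM moves less with library scale. Over the nuclear genome alone the NaCl differences of DCL4, RDR6 and AGO7 were −0.15, −0.15 and 0.12, beside −0.25, −0.23 and −0.06 centred. Those of DCL2 and AGO10 were −0.39 and −0.45, beside −0.42 and −0.45. How much of the median change comes from this was not tested.

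AGO4, which carries siRNAs to loci that are then methylated, had 8.35, 8.14 and 10.96 TPM in sos2-2 in NaCl, 7.56 and 6.43 in sos2-2 on MS, 7.43, 6.43 and 5.07 in WT in NaCl and 7.21, 6.71 and 7.90 in WT on MS. As deposited the 3 sos2-2 libraries in NaCl were the highest of all 11, while 36.0% of all genes were higher without overlap than in WT in NaCl and 28.9% than in sos2-2 on MS. Their log2 difference from WT in NaCl was 0.48 (SE 0.19, adjusted p = 0.0787). Relative to the library median it was 0.11 (SE 0.10, 95% interval −0.11 to 0.34, adjusted p = 0.521), beside the median log2 change of 0.32 of all genes as deposited. After centring AGO4 had the smallest spread of the tested members, with an SD of 0.09 in log2, against a median of 0.25 over all tested genes. Its deposited level correlated with the plastid share of the library at r = −0.832 over 11 libraries, as a description. This was not particular to AGO4: r was −0.866 for AGO7 and −0.822 for RDR6. Among the tested members only SGS3 had a positive r, of 0.241.

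AGO2, an antiviral Argonaute and the target of miR403, had 6.21, 3.08 and 5.40 TPM in sos2-2 in NaCl, 3.88 and 2.83 in sos2-2 on MS, 2.52, 3.17 and 3.12 in WT in NaCl and 2.54, 2.35 and 3.08 in WT on MS. Replicates 1 and 3 of sos2-2 in NaCl were above all other libraries, and replicate 2 lay among WT in NaCl. The log2 difference between sos2-2 and WT in NaCl was 0.55 as deposited (SE 0.21, adjusted p = 0.0678) and 0.18 centred (SE 0.19, adjusted p = 0.584). Without replicate 2 of sos2-2 in NaCl it was 0.79 as deposited and called (adjusted p = 0.0156, with 14.2% of all genes called higher), and 0.38 centred and not called (0.240). AGO3, the tandem neighbour of AGO2, is also known as a target of miR403, and is named after its values were seen. The search above found no miR403 site of penalty up to 2.5 in the AGO3 transcript used. AGO3 was at 0.279 ± 0.0178 TPM in sos2-2 in NaCl and 0.126 ± 0.0671 in sos2-2 on MS. In WT it was at 0.0806 ± 0.0331 in NaCl and 0.0676 ± 0.0564 on MS (SD, n = 3, 2, 3 and 3).

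AGO7, which carries miR390 to TAS3, had 1.77, 2.00 and 2.63 TPM in sos2-2 in NaCl, 2.07 and 1.32 in sos2-2 on MS, 2.21, 1.52 and 0.968 in WT in NaCl and 2.33, 2.20 and 2.24 in WT on MS. WT on MS was tight, and the other groups spread widely around or below it. The centred difference between sos2-2 and WT on MS was −0.25 (SE 0.14, adjusted p = 0.488 and 0.250), and the centred salt change in WT was −0.18 (SE 0.13, adjusted p = 0.215 and 0.382).

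Ratios between members within a library do not depend on how the library is scaled, and are given as descriptions because the pairs were chosen after the values were seen. AGO4 over AGO10 was 0.849, 0.819 and 0.931 in sos2-2 in NaCl and 0.719 and 0.710 in sos2-2 on MS. In WT it was 0.529, 0.564 and 0.579 in NaCl and 0.575, 0.533 and 0.679 on MS. All 5 sos2-2 libraries were thus above all 6 WT libraries, and within sos2-2 the NaCl libraries were above those on MS. This ratio restates the AGO4 and AGO10 levels given above. For none of the ratios here was it counted how many other pairs of genes separate the groups likewise. AGO2 over AGO10 was 0.632, 0.310 and 0.459 in sos2-2 in NaCl, 0.370 and 0.312 in sos2-2 on MS, 0.179, 0.278 and 0.357 in WT in NaCl and 0.203, 0.186 and 0.265 in WT on MS, with an overlap in NaCl and none on MS. DCL2 over DCL4 was 0.783, 0.593 and 0.744 in sos2-2 in NaCl and 0.829, 0.811 and 0.958 in WT in NaCl, without overlap. On MS it was 0.685 and 0.967 in sos2-2 and 1.34, 0.881 and 1.16 in WT, which overlapped. SGS3 over RDR6 averaged 2.85 ± 0.794 in sos2-2 in NaCl, 2.35 ± 0.371 in sos2-2 on MS, 3.301 ± 1.75 in WT in NaCl and 1.54 ± 0.249 in WT on MS (SD, n = 3, 2, 3 and 3).

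**Figure D4:**
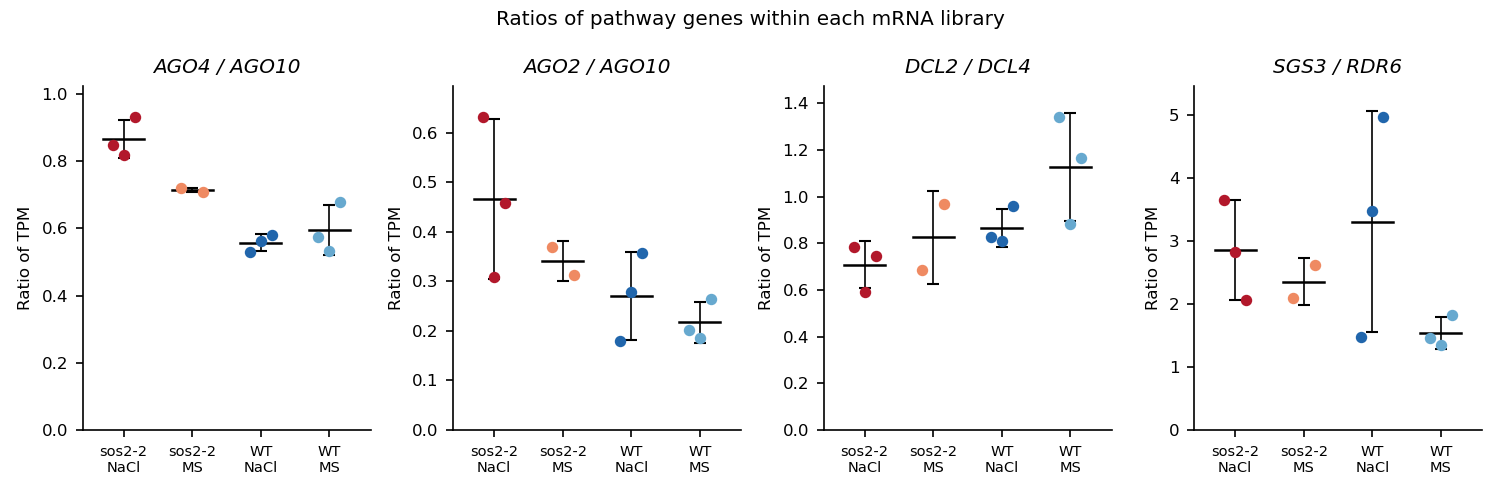
Ratio of TPM between pairs of pathway genes within each mRNA library (vertical axis, from 0), by group. Points are libraries, long bars are group means and whiskers are SD, and AGO4 over AGO10 lies between 0.710 and 0.931 in all sos2-2 libraries and between 0.529 and 0.679 in all WT libraries. How many other pairs of genes separate the genotypes was not counted.

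Members did not move as a block. Among the 8 tested members, centred levels correlated most strongly between AGO7 and SGS3 (r = −0.846), AGO2 and SGS3 (0.746) and AGO10 and RDR6 (0.736) over 11 libraries. AGO2 had the largest SD of log2 values as deposited among them, 0.35, so the genes most like it were sought by Pearson correlation of centred log2 values over 11 libraries. They were ABF4 (r = 0.920), SPL14 (0.919) and AT1G27300 (0.916).

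Of 50 further genes of small RNA pathways, 44 were in the table and 30 were tested, with 0 called as deposited for salt in sos2-2, salt in WT and the interaction. The list was drawn up with earlier results of these data known. For sos2-2 against WT in NaCl 1 of 30 was called, higher, beside 18.9% of all genes. TEX1, a THO complex subunit needed for trans-acting siRNAs, had 4.61, 4.01 and 4.64 TPM in sos2-2 in NaCl and 2.61, 3.33 and 2.03 TPM in WT in NaCl (centred log2 0.22, SE 0.11, adjusted p = 0.0272 as deposited and 0.251 centred). On MS 1 was called higher, beside 1.56% of all genes, and 1 lower, beside 1.23%. SPT5L, a partner of Pol V that binds AGO4, had 3.50 and 3.52 TPM in sos2-2 on MS and 0.912, 0.688 and 0.8805 TPM in WT on MS (1.34, SE 0.35, adjusted p = 0.0235 and 0.0380). With 60.9% purines it lies at percentile 99.4, and with the purine and length trend removed its difference was 0.63 (adjusted p = 0.0635). DRB3, a double-stranded RNA-binding protein, had 4.93 and 3.46 TPM in sos2-2 on MS and 9.16, 8.49 and 10.5 TPM in WT on MS (−0.98, SE 0.16, adjusted p = 0.0307 and 0.00941). Its values in NaCl were 4.03, 5.01 and 6.90 TPM in sos2-2 and 7.66, 7.47 and 5.31 TPM in WT (−0.68, SE 0.14, adjusted p = 0.264 and 0.0136).

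Role by role, as deposited, the list held 6 Dicers and double-stranded RNA partners (6 tested, DRB3 lower on MS), 6 Argonautes (1 tested), 4 RDRs (1 tested), 3 genes of small RNA methylation and export (3 tested), 4 helpers of RDR6 and SGS3 (4 tested, TEX1 higher in NaCl), 8 of Pol IV and Pol V (4 tested), 10 of later steps of DNA methylation (8 tested, SPT5L higher on MS) and 3 targets of trans-acting siRNAs (3 tested). No others were called, and 6 TAS precursors were not analysed here.

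In the small RNA libraries, none of the 30 miRNAs of the 8 families tied to these genes was called as deposited in any comparison. Of all 293 miRNAs tested, 3.75% were called for salt in sos2-2, 4.44% for salt in WT, 3.41% for sos2-2 against WT in NaCl, 4.44% for the same on MS and 0% for the interaction. The smallest limma adjusted p among the 30 was 0.0542. At an unadjusted p under 0.05 there passed 1 for salt in sos2-2, 4 for salt in WT, 1 for genotype on MS and 0 in the other 2 comparisons. Of all 293 miRNAs, 22 passed higher and 32 lower for salt in sos2-2, and 43 and 8 for salt in WT. For genotype on MS 28 and 8 passed, in NaCl 16 and 44, and for the interaction 4 and 14. The median log2 change of all 293 was −0.04 for salt in sos2-2, 0.10 for salt in WT, −0.14 for sos2-2 against WT in NaCl and 0.01 on MS. After centring 2 were called for salt in sos2-2 (12.6% of all miRNAs), 1 for salt in WT (5.46%), 0 for genotype in NaCl (6.14%), 1 for genotype on MS (7.17%) and 0 for the interaction (0%).

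The miRNAs called for salt in sos2-2 after centring, both higher in NaCl, were miR173-5p and miR390a-3p, of families that trigger trans-acting siRNAs. miR173-5p had 665, 762 and 710 RPM in sos2-2 in NaCl and 648, 613 and 593 RPM in sos2-2 on MS, without overlap (centred log2 change 0.25, SE 0.07, adjusted p = 0.344 as deposited and 0.0301 centred). In WT it had 856, 861 and 788 RPM in NaCl and 593, 640 and 698 RPM on MS (0.21, SE 0.07, adjusted p = 0.0626 and 0.0987), again without overlap. How many of all tested miRNAs separated in this way was not counted. The strand opposite the guide of miR390, miR390a-3p, had 62.4, 79.6 and 70.5 RPM in sos2-2 in NaCl and 62.1, 57.3 and 51.0 RPM in sos2-2 on MS (0.36, SE 0.09, adjusted p = 0.200 and 0.0195). In WT miR390a-3p was higher in NaCl too, at 85.6, 70.8 and 81.0 RPM against 48.8, 62.4 and 60.0 RPM on MS, but was not called. The guide miR390a-5p had 143, 175 and 155 RPM in sos2-2 in NaCl, 146, 124 and 128 in sos2-2 on MS, 179, 157 and 155 in WT in NaCl and 106, 147 and 143 in WT on MS, and was called nowhere (centred salt change in sos2-2 0.29, SE 0.09, adjusted p = 0.344 and 0.0501). The salt changes of these miRNAs were not shown to differ between the genotypes, as their interactions had adjusted p of at least 0.729.

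miR403-3p, whose site in AGO2 is shown above, was more abundant than miR173-5p, at 2185 ± 43.7 RPM in sos2-2 in NaCl, 2066 ± 127 in sos2-2 on MS, 2373 ± 79.2 in WT in NaCl and 2239 ± 317 in WT on MS (SD, n = 3 each). The 3 sos2-2 libraries in NaCl had 2142, 2229 and 2183 RPM and those of WT in NaCl had 2459, 2357 and 2303 RPM, without overlap and lower in sos2-2. The median log2 change of all 293 miRNAs in this comparison was −0.14, and how many of them separated likewise was not counted. The log2 difference was −0.12 as deposited (SE 0.12, adjusted p = 0.563) and turned to 0.08 relative to the median miRNA (SE 0.06, adjusted p = 0.596). miR828 was rare, at 1.47 ± 0.492 RPM in sos2-2 in NaCl, 1.89 ± 0.432 in sos2-2 on MS, 1.45 ± 0.240 in WT in NaCl and 1.64 ± 0.264 in WT on MS (SD, n = 3 each), and was not called. The other 2 called after centring, named after their values were seen, were miR166g, lower for salt in WT (−0.22, SE 0.06, adjusted p = 0.925 and 0.0402), and miR168b-3p, higher in sos2-2 than in WT on MS (0.35, SE 0.09, adjusted p = 0.136 and 0.0363). The sequence of miR166g is also that of miR166a-3p, miR166b-3p, miR166c, miR166d, miR166e-3p and miR166f, so their RPM share reads. None of the others was called for salt in WT. WT means in NaCl and on MS were 700 and 731 RPM for miR166g and 711 and 729 for miR166f. They were 647 and 654 for miR166c, 626 and 631 for miR166b-3p and 628 and 626 for miR166d. For miR166a-3p they were 856 and 855, and for miR166e-3p 855 and 844. A fall of miR166 as a whole was thus not shown, and entries of the same sequence are not separate miRNAs.

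**Figure D5:**
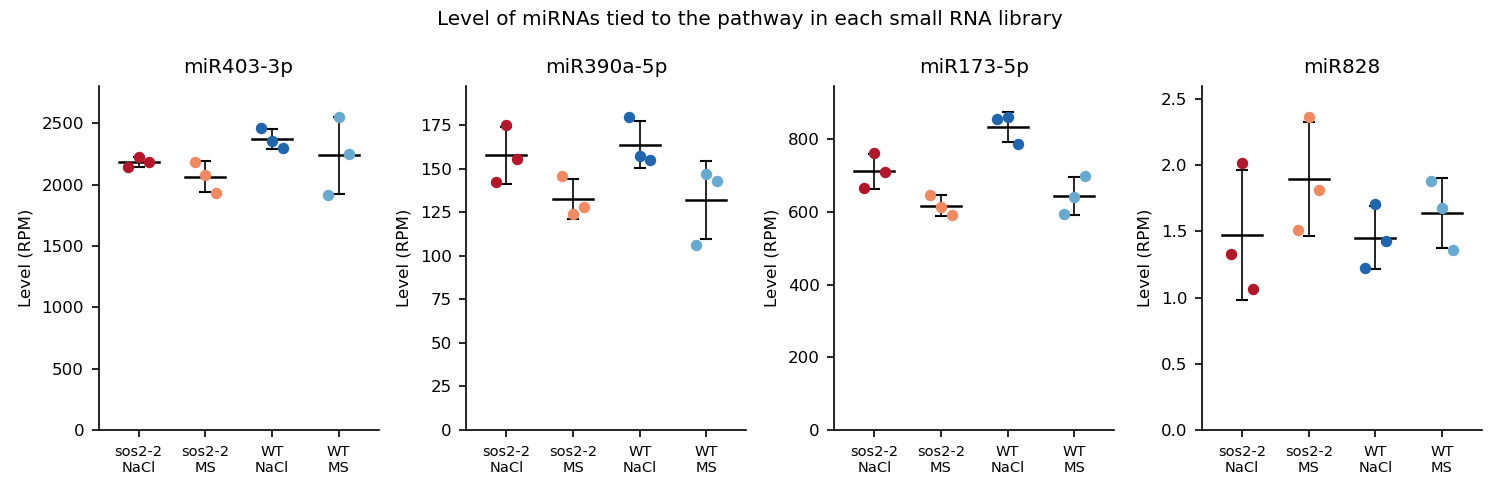
Level in RPM of miR403-3p, miR390a-5p, miR173-5p and miR828 (vertical axis, from 0, scaled per miRNA) in the 4 groups of 3 small RNA libraries. Points are libraries, long bars are group means and whiskers are SD, and miR173-5p in NaCl lies above MS in both genotypes without overlap. The share of all miRNAs that did so was not counted.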

How the data were processed

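The authors deposited mRNA values as TPM per transcript and small RNA values as RPM per mature miRNA. The submitters' processing notes name kallisto 0.46.2, sleuth 0.30.0, cutadapt and featureCounts 1.6.4, with the build TAIR10, without saying which made what. TPM was summed from 48359 transcripts to 27655 genes, and symbols, coordinates and sequences came from the TAIR10.1 RefSeq annotation by locus. limma 3.58.1 with an intensity trend was fitted to log2(value + 1) of all groups, which understates changes of low genes, over the 16564 genes and 293 miRNAs with a mean of at least 1, with Benjamini-Hochberg adjustment over all of them. The procedure was tested on simulated data. The members and lists were chosen with earlier results of these data known. The further genes given by name were to be those called as deposited, and SOS2. In the low RPM values, steps implied 16.7 to 19.6 × 1e6 reads per small RNA library, while TPM keeps no depth. Groups came from sample titles. The columns of small RNA values were matched to groups only and numbered in their order. No label names separate cultures, so the p-values rest on spread between libraries that may be technical.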

Additional observations from a re-analysis of the deposited data

How the results depend on the processing

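For the 8 tested pathway genes, 0 were called as deposited in each of the 5 comparisons, and a pseudocount of 0.1, no filter, no intensity trend, a replicate block or a fit on the compared groups only gave 0 as well. For sos2-2 against WT in NaCl, 2 were called after median centring, 1 over the nuclear genome alone, 1 with centring and a replicate block and 1 with centring and no filter. Leaving out 1 library gave 0 to 2 calls for that comparison, 0 to 2 for salt in WT, 0 to 1 for the interaction and 0 for the other 2 comparisons. The one change of sign at a call was that of SGS3 for sos2-2 against WT in NaCl, at −0.60 after centring without replicate 1 of WT in NaCl, against 0.10 as deposited with all libraries. AGO10 was called lower in NaCl in 9 of 33 settings (adjusted p 0.0259 to 0.901) and DCL2 in 2 of 33 (0.0266 to 0.992).

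In the wider list of 30 tested genes, salt in sos2-2 gave 0 calls as deposited and 1 after centring, over the nuclear genome alone, with the compared groups only or with the purine and length trend removed. Salt in WT gave 0 as deposited and 1 after centring, over the nuclear genome alone or with the trend removed. For sos2-2 against WT in NaCl the 1 call as deposited was TEX1, higher, and without a filter there were 2, with AGO3 higher too. After centring TEX1 was not called, and 2 others, DRB3 and HST, were called lower, also with centring and a replicate block or with the trend removed. With centring and no filter 3 were called, DRB3, HST and RDR5, and with the compared groups only 0. On MS there were 2 calls as deposited, 0 with no filter, 6 after centring, 5 over the nuclear genome alone or with the compared groups only, 1 with a replicate block as deposited or centred, and 7 with the trend removed, and the genes called differed. Leaving out 1 library gave 0 to 2 calls for salt in sos2-2, 0 to 6 for salt in WT, 0 to 4 in NaCl, 0 to 7 on MS and 0 to 4 for the interaction, the highest without replicate 1 of WT in NaCl except for salt in sos2-2, where it was replicate 1 of sos2-2 in NaCl. Among the 30 miRNAs, 0 as deposited became 2, 1 and 1 after centring for salt in sos2-2, salt in WT and genotype on MS, and leaving out 1 library gave 0 to 2 for salt in WT. The share of all genes called moved too. For genotype on MS it was 2.79% as deposited and 10.3% after centring. Without replicate 1 of WT in NaCl, 3.96% were called higher and 21.9% lower for salt in WT as deposited. For sos2-2 against WT in NaCl 32.7% were then called higher. Not every setting has its share of all genes given, so the counts do not single out the wider list. The cause of these changes was not tested.

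Same-numbered mRNA libraries did not deviate together (r from −0.526 to 0.294), so the replicate block rests on numbers alone. No block was fitted for small RNA because its columns were matched to groups only. The alternatives with centring plus another change, and the trend removal, were chosen after seeing the data. With 2 or 3 libraries a group small changes were not detectable, and for genes near 1 TPM the pseudocount shrinks changes further. For such genes centring can also take off more than the scale difference that their log2(TPM + 1) carries.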
